A study of Rattus norvegicus with 16 samples.

Results

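Rbfox3, Elavl3 and Elavl4 are genes of neuronal RNA-binding proteins, and their RNA levels were followed in the adrenal medulla of rats with and without a mutation of the cell cycle inhibitor p27Kip1. They were taken as every probe set whose single gene symbol in the array's platform annotation was Rbfox3, Elavl3 or Elavl4, which gave 3 of 14217 genes and 5 of 31042 probe sets: 2 for Rbfox3, 2 for Elavl3 and 1 for Elavl4. Total RNA from 16 samples was hybridized to Affymetrix rat expression arrays, and the animals' strain was Sprague–Dawley white eye/Wistar–Kyoto. There were 8 arrays of adrenal medullary hyperplasia from p27Kip1 mutant rats of 2 months, 4 labelled female and 4 labelled male, against 2 pools of adrenomedullary tissue from young wild-type rats of 2 months. Young pool 1 held 2 animals labelled male and young pool 2 held 3 animals labelled female. There were 4 arrays of pheochromocytoma, a tumour of the catecholamine-producing chromaffin cells, from p27Kip1 mutant rats. The first 3 tumours were of females aged 8 months and the fourth of a male aged 9 months, by their labels. Their wild-type arrays, described as age-matched, were 2 old pools. Old pool 1 held 2 animals of 10 months labelled female, and old pool 2 held 2 animals of 12 and 17 months labelled male. The old wild-type animals were all older than those with tumours, so that genotype and age cannot be told apart in that comparison. A pool averages its animals, so that 2 pools can differ less than 2 single animals would.

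The ELAV-like proteins bind U-rich and AU-rich stretches of messenger RNA, mostly in its untranslated regions, and are known to stabilise transcripts and to steer splicing, polyadenylation and translation. Elavl3 codes for HuC and Elavl4 for HuD, which are found mainly in neurons and some neuroendocrine cells, while their paralog Elavl1 (HuR) is found in nearly all cells. Rbfox3 codes for NeuN, the nuclear antigen used to mark mature neurons, and is a splicing regulator that binds UGCAUG elements like its paralogs Rbfox1 and Rbfox2. Chromaffin cells share their origin in the neural crest with sympathetic neurons.

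In the RefSeq gene table of the rat build GRCr8, Rbfox3 (Entrez 287847) spans chromosome 10 from 104218940 to 104655863, Elavl3 (Entrez 282824) chromosome 8 from 28823120 to 28859395, and Elavl4 (Entrez 432358) chromosome 5 from 130285418 to 130429106. Where in these genes the probe sets lie was not analysed here. The suffix of Elavl3 1382169_x_at marks a probe set whose probes may also match other transcripts. The promoters of both ELAV-like genes, which were higher together in hyperplasia, are shown. Rbfox3 was also higher, but no promoter window for it was in the reference used here. Each is the RefSeq window on the minus strand from 250 bases before to 50 bases after an annotated start, at chr8:28858964-28859263 for Elavl3 and chr5:130367614-130367913 for Elavl4 (GRCr8). Both windows lie inside the gene spans above, so they belong to annotated starts other than the outermost. The capitals mark the only match to the E-box motif CANNTG, which has the same letters on both strands.
Elavl3: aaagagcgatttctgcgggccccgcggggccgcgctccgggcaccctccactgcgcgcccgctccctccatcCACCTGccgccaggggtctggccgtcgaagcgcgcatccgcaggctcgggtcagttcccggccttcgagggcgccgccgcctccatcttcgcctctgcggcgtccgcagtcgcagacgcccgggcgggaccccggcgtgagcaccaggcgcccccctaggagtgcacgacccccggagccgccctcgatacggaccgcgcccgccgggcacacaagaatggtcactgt
Elavl4: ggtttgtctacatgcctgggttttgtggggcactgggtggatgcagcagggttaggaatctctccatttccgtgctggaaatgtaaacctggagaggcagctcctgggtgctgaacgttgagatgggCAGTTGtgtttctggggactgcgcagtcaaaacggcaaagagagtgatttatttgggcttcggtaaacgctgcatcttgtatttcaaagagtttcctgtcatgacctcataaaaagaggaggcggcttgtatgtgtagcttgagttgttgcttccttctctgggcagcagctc
The windows had little in common. The Elavl3 window had 74.3% G and C and 42 CG dinucleotides, and 96.3% of 33469 rat promoters of the same length had a lower share of G and C. The Elavl4 window had 50% G and C and 7 CG dinucleotides, and 43.3% of promoters were lower. The motif GGGCGG, searched on both strands, was found in 2 places in the Elavl3 window and in 0 in the Elavl4 window, against 33.1% of all promoters with a match. TATAAA, also on both strands, was in neither window and in 14.2% of all promoters. An E-box match was present in 72.1% of all promoters.

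Values are the deposited log2 RMA levels, and a level of one probe set cannot be set against that of another. All 5 probe sets lay above the first quartile of every array (4.71 to 4.93) on all 16 arrays, and each was brighter on average than 55.6% to 76.6% of all probe sets. The labelled tissue was checked against chromaffin cell markers. The mean of 9 such markers was 13.59 to 13.71 in hyperplasia, against 13.64 to 13.72 in young wild type, and 13.59 to 13.75 in pheochromocytoma, against 13.22 to 13.66 in old wild type. Of the 9, 0 were higher and Pnmt was lower in hyperplasia, and Ddc (0.85) and Slc18a1 (0.69) were higher in pheochromocytoma. Without old pool 2, Ddc was at 0.43 (adjusted p = 0.265) and Slc18a1 at 0.29 (adjusted p = 0.529). Pnmt lost its call in 16 of its alternatives, among them no sex term, sex from Xist and leaving out either young pool. On 6 of the 16 arrays, 4 of hyperplasia and both young pools, the level of Xist, which coats the silenced X chromosome of females, went against the labelled sex. Each group held as many arrays with Xist as arrays labelled female. The results are therefore also given with those 4 hyperplasia arrays left out and no sex term, a setting in which 10 of the 31 other genes named as past the threshold in hyperplasia still passed. Quality probe sets also differed between groups: the difference between the hexokinase probe sets at the 3′ and 5′ ends, a measure of RNA or amplification quality, lay at 1.21 to 1.63 on the hyperplasia arrays and at 1.07 to 1.18 on the young pools, but at 2.16 to 3.30 in pheochromocytoma and at 2.29 to 2.92 in old wild type. The hyperplasia arrays and the young pools did not overlap in this measure, and its part in their differences was not tested.

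The first comparison asked how 2-month-old mutant medulla with hyperplasia differed from wild-type medulla of the same age. All 5 probe sets were higher in hyperplasia by the limma test (adjusted p under 0.05), where 4.16% of all probe sets passed in that direction. Their median difference was 0.87, against -0.02 over all probe sets. Rbfox3 differed most.

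Rbfox3, the NeuN gene, was at 8.16 to 9.17 on probe set 1377095_at in hyperplasia (median 8.63 of 8 arrays) and at 6.67 and 6.82 in the young wild-type pools. Every hyperplasia array lay above both pools, with a gap of more than 1 log2 unit between the groups. Its level was 8.63 ± 0.34 in hyperplasia (SD, n = 8) and 6.75 ± 0.10 in young wild type (SD, n = 2). The fitted difference was 1.89 ± 0.28 (SE), with a 95% confidence interval of 1.29 to 2.49, which is a 3.70-fold higher level (adjusted p = 0.00137). On the dimmer probe set 1376460_at, Rbfox3 was at 6.80 to 8.07 in hyperplasia (median 7.35) and at 5.68 and 5.71 in the pools, again without overlap. That difference was 1.75 ± 0.28 (adjusted p = 0.00202), or 3.37-fold.

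Elavl3, which codes for HuC, was at 8.44 to 9.04 on probe set 1382168_at in hyperplasia (median 8.84), against 8.23 and 7.85 in young wild type. The groups did not overlap, and the lowest hyperplasia array, replicate 7, stood apart from the other 7 and closest to the pools. The difference was 0.78 ± 0.15 (interval 0.47 to 1.10, adjusted p = 0.00579), a 1.72-fold higher level. Probe set 1382169_x_at gave 8.49 to 8.90 in hyperplasia (median 8.78) and 8.28 and 7.91 in the pools. Its difference was 0.66 ± 0.13 (adjusted p = 0.00738), or 1.57-fold, so the probe sets of Elavl3 went the same way.

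Elavl4, which codes for HuD, was at 7.50 to 8.43 in hyperplasia (median 8.12) and at 7.31 and 7.09 in young wild type. All 8 hyperplasia arrays were higher, with replicate 7 again the lowest. The difference was 0.87 ± 0.20 (interval 0.44 to 1.30, adjusted p = 0.0173), a 1.83-fold higher level.

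How far these calls rest on single pools differed between the genes. Rbfox3 1377095_at passed whichever array was left out. Without young pool 2, Rbfox3 1376460_at was at 1.63 (adjusted p = 0.0632), Elavl3 at 0.57 (adjusted p = 0.189) and on its other probe set at 0.41 (adjusted p = 0.254), and Elavl4 at 0.72 (adjusted p = 0.26). Without young pool 1, Elavl4 was at 1.02 (adjusted p = 0.0695). With the 4 hyperplasia arrays against their sex label left out and no sex term, both Rbfox3 probe sets passed, and Elavl3 was at 0.72 (adjusted p = 0.0569) and 0.59 (adjusted p = 0.0678) and Elavl4 at 0.81 (adjusted p = 0.0882).

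**Figure D1:**
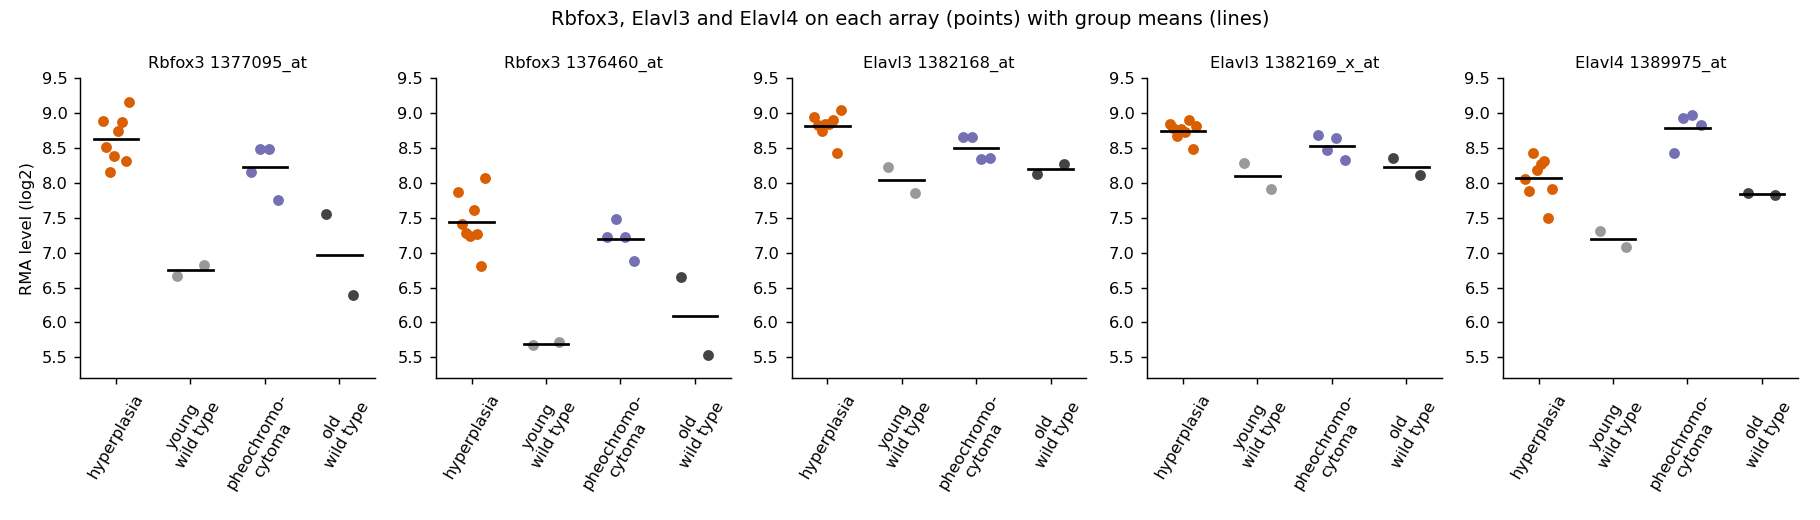
RMA level (log2, vertical axis) of each of the 5 probe sets on every array, by group, with 1 point per array and a line at the group mean. The 8 hyperplasia points lie above both young wild-type points in all 5 panels, and the old wild-type points of Rbfox3 lie 1.15 and 1.12 apart.

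The second comparison set the tumours against old wild-type medulla. Of the 5 probe sets, 3 were higher in pheochromocytoma, both of Rbfox3 and that of Elavl4, and 2, those of Elavl3, did not pass. Over all probe sets 7.51% were higher. The median difference of the 5 was 0.94, against -0.01 over all probe sets.

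On 1377095_at, Rbfox3 was at 8.16, 8.48, 8.49 and 7.76 in the pheochromocytomas, against 7.55 and 6.40 in old wild type. All tumours lay above both pools, and the fourth was close to old pool 1. The difference was 1.21 ± 0.31 (interval 0.55 to 1.88, adjusted p = 0.02), or 2.32-fold. On 1376460_at the tumours were at 7.22, 7.49, 7.22 and 6.88 and the pools at 6.66 and 5.54, a difference of 1.04 ± 0.31 (adjusted p = 0.0365), or 2.06-fold.

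The old pools disagreed on Rbfox3. Old pool 1 exceeded old pool 2 by 1.15 (2.22-fold) on 1377095_at and by 1.12 on 1376460_at, gaps larger than those of 98% and 97.9% of all probe sets between the same pools. The size of the Rbfox3 difference in the tumours therefore depended on the pool. Without old pool 2 the difference was 0.67 (adjusted p = 0.374) on 1377095_at and 0.58 (adjusted p = 0.476) on 1376460_at, and without old pool 1 it was 1.83 (adjusted p = 0.00545) and 1.58 (adjusted p = 0.0143). The young pools differed by -0.15 and -0.04 on the same probe sets. Old pool 2 held the oldest animals and was the only old pool labelled male, so that age, sex and pool cannot be told apart. It also stood apart in tissue markers. Its chromaffin marker mean was 13.22, against 13.66 in old pool 1 and 13.59 or more on every other array. Its mean of the other neuronal genes listed below was 9.16, the lowest of the 16 arrays. The part of these differences in the Rbfox3 result was not tested. The 1376460_at call was also lost on leaving out any single tumour, with an adjusted p of 0.0505 to 0.0729, while the difference stayed at 0.97 to 1.11. With the 4 hyperplasia arrays against their sex label left out and no sex term it was 1.11 (adjusted p = 0.0543).

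Elavl4 was at 8.42, 8.93, 8.98 and 8.83 in the pheochromocytomas and at 7.86 and 7.82 in old wild type. The tumours were higher throughout, the first by the least, and the pools lay within 0.04 of each other. The difference was 0.94 ± 0.22 (interval 0.46 to 1.41, adjusted p = 0.0138), a 1.92-fold higher level. It was as large without old pool 1 (0.94, adjusted p = 0.0648) and without old pool 2 (0.94, adjusted p = 0.137), where the call was lost.

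Elavl3 did not pass in the tumours. On 1382168_at it was at 8.67, 8.66, 8.35 and 8.35, against 8.13 and 8.28 in old wild type, so that the tumours were above both pools by a small margin. The difference was 0.31 ± 0.16 (adjusted p = 0.232), and its interval of -0.04 to 0.65 includes 0. On 1382169_x_at the tumours were at 8.68, 8.47, 8.64 and 8.33 and the pools at 8.36 and 8.11, which overlap, and the difference was 0.28 ± 0.14 (adjusted p = 0.206).

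A call in hyperplasia without one in the tumours does not show that Elavl3 differed between the stages, so the difference of the effects was tested. For Elavl3 the effect in the tumours minus that in hyperplasia was -0.48 ± 0.22 on 1382168_at (interval -0.95 to -0.01, adjusted p = 0.459) and -0.37 ± 0.19 on 1382169_x_at (adjusted p = 0.499). For Rbfox3 the effects differed by -0.67 ± 0.42 (adjusted p = 0.585) and -0.71 ± 0.41 (adjusted p = 0.558), and for Elavl4 by 0.07 ± 0.30 (interval -0.57 to 0.70, adjusted p = 0.957). In this limma test 0 of 5 probe sets passed after adjustment, Elavl3 1382168_at alone was past the threshold without adjustment, and 0.0193% of all probe sets passed. The intervals are wide enough to hide sizeable differences between the stages.

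**Figure D2:**
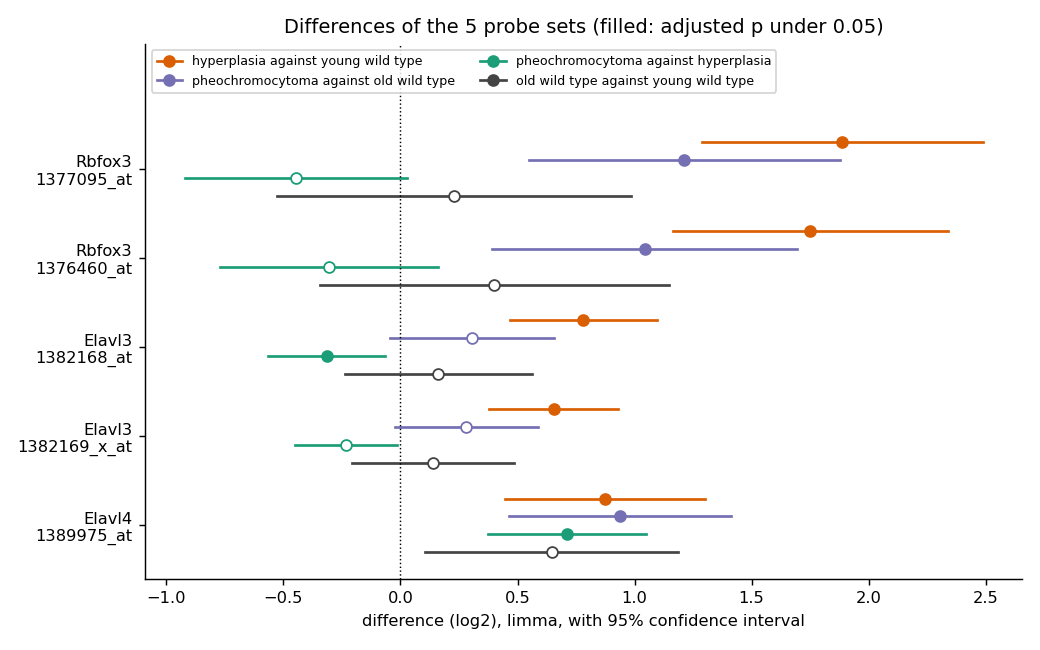
Log2 differences of the 5 probe sets from the limma fit (horizontal axis) in 4 comparisons, with 95% confidence intervals as bars and filled points where the adjusted p was under 0.05. All 5 points of hyperplasia against young wild type are filled, and Elavl4 is the gene whose intervals lie above 0 in all 4 comparisons.

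Set directly against hyperplasia, the tumours separated the genes. Elavl4 was higher in pheochromocytoma by 0.71 ± 0.16 (adjusted p = 0.00238), or 1.64-fold, with means of 8.79 ± 0.25 in pheochromocytoma (SD, n = 4) and 8.07 ± 0.30 in hyperplasia (SD, n = 8). The arrays overlapped at the edge, since the lowest tumour and the highest hyperplasia array, replicate 3, were both near 8.42. Elavl3 1382168_at was lower by -0.31 ± 0.12 (adjusted p = 0.0451), with means of 8.51 ± 0.18 and 8.82 ± 0.18, and 1382169_x_at differed by -0.23 ± 0.10 (adjusted p = 0.0833). The Rbfox3 probe sets differed by -0.45 ± 0.22 (adjusted p = 0.128) and -0.31 ± 0.22 (adjusted p = 0.292). Both groups are mutant but differ in age as well as in stage, and 19.3% of all probe sets were higher and 19.4% lower in the tumours. The hexokinase values above differ in the same way, so that stage, age and RNA quality cannot be told apart. The Elavl4 call held in all 28 alternative settings (0.64 to 0.83), whereas that of Elavl3 1382168_at was lost in 13 of them, for example without pheochromocytoma 3 (-0.27, adjusted p = 0.129) and without pheochromocytoma 4 (-0.23, adjusted p = 0.217).

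In wild-type medulla, old against young, 0 of 5 probe sets passed in limma and 10.3% of all probe sets were higher. Elavl4 was at 7.86 and 7.82 in the old pools and at 7.31 and 7.09 in the young pools, so both old pools lay above both young ones. Its difference was 0.65 ± 0.25 (interval 0.10 to 1.19, adjusted p = 0.0793, unadjusted p under 0.05). The adjusted p was 0.0376 with Xist in place of the labelled sex. The differences of Rbfox3 were 0.23 ± 0.36 (adjusted p = 0.684) and 0.40 ± 0.35 (adjusted p = 0.438), and those of Elavl3 0.16 ± 0.19 (adjusted p = 0.573) and 0.14 ± 0.16 (adjusted p = 0.578). Without old pool 1 the first Rbfox3 probe set was at -0.35.

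Ordered by mean level, Elavl4 was highest in pheochromocytoma (8.79), then hyperplasia (8.07), old wild type (7.84) and young wild type (7.20). Old wild type lay within the range of the hyperplasia arrays, so these neighbours did not differ beyond their spread. Rbfox3 had another order: hyperplasia (8.63 on 1377095_at), pheochromocytoma (8.22), old wild type (6.97) and young wild type (6.75), where the first pair and the last pair overlapped. Elavl3 1382168_at had the order of Rbfox3, with 8.82, 8.51, 8.20 and 8.04, and its wild-type groups overlapped.

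The mean of the adrenal cortex marker genes was lower in hyperplasia and in pheochromocytoma than in their wild-type pools. The cortex surrounds the medulla and can be carried along in dissection. The mean of 12 measured cortex markers was 10.42 to 11.22 in hyperplasia (median 10.82) and 11.55 and 11.66 in young wild type, and 10.50 to 11.67 in pheochromocytoma (median 11.12) and 11.98 and 12.19 in old wild type. Of these markers 0 were higher, 2 lower (Scarb1 at -1.22 and Fdx1 at -0.80) and 10 did not pass in hyperplasia, where the median difference was -0.62. With the 4 arrays against their sex label left out, Scarb1 was at -1.18 (adjusted p = 0.145) and Fdx1 at -0.84 (adjusted p = 0.0972). Without young pool 2, Scarb1 was at -1.02 (adjusted p = 0.377) and Fdx1 at -0.75 (adjusted p = 0.27). In pheochromocytoma 0 markers were higher and 6 lower, with a median of -0.96, against 6.49% of all genes lower. Without old pool 2, Mrap was at -1.43 (adjusted p = 0.144), Nr5a1 at -1.34 (adjusted p = 0.314), Scarb1 at -1.34 (adjusted p = 0.211) and Akr1b7 at -0.90 (adjusted p = 0.274), all without a call. Cyp17a1, an enzyme that rat adrenal cortex largely lacks, was above the first quartile on 0 arrays. In bulk tissue fewer cells of a type and less RNA per cell cannot be told apart.

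With the mean of the cortex markers added as a covariate, Rbfox3 in hyperplasia was as large as before, 2.09 (adjusted p = 0.0166) and 1.84 (adjusted p = 0.0319) on its probe sets. Elavl4 was smaller, at 0.46 (adjusted p = 0.342) in hyperplasia and 0.38 (adjusted p = 0.537) in pheochromocytoma. In pheochromocytoma Rbfox3 was at 1.49 (adjusted p = 0.168) and 1.17 (adjusted p = 0.268), so its size held and its call did not. Elavl3 1382169_x_at in hyperplasia was at 0.72 (adjusted p = 0.0641). The cortex mean did not overlap between hyperplasia and young wild type, nor between pheochromocytoma and old wild type. Few probe sets of any kind passed with it as a covariate: 268 in hyperplasia and 77 in pheochromocytoma, against 2227 and 4027 without it.

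Within the 8 hyperplasia arrays alone, which share genotype and age, Elavl4 and the cortex mean had a Pearson r of -0.79. Replicate 3 had the lowest cortex mean, 10.42, and the highest Elavl4, 8.43, and replicates 2, 7 and 8 had the 3 highest cortex means, 11.20, 11.13 and 11.22, and the 3 lowest Elavl4 levels, 7.88, 7.50 and 7.91. For Rbfox3 the same r was 0.35 and 0.09, and for Elavl3 -0.05 and -0.13. The 8 arrays also differed in Xist. Elavl4 was at 8.18 to 8.43 on the 4 arrays with Xist and at 7.50 to 8.06 on the 4 without it. Replicate 1, without Xist, had a cortex mean of 10.70, within the range of the arrays with Xist. The other arrays without Xist had higher cortex means than all those with it. The parts of Xist and the cortex mean in the Elavl4 levels were not tested. These are descriptions over 8 arrays, and whether these were normalized jointly is not known.

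**Figure D3:**
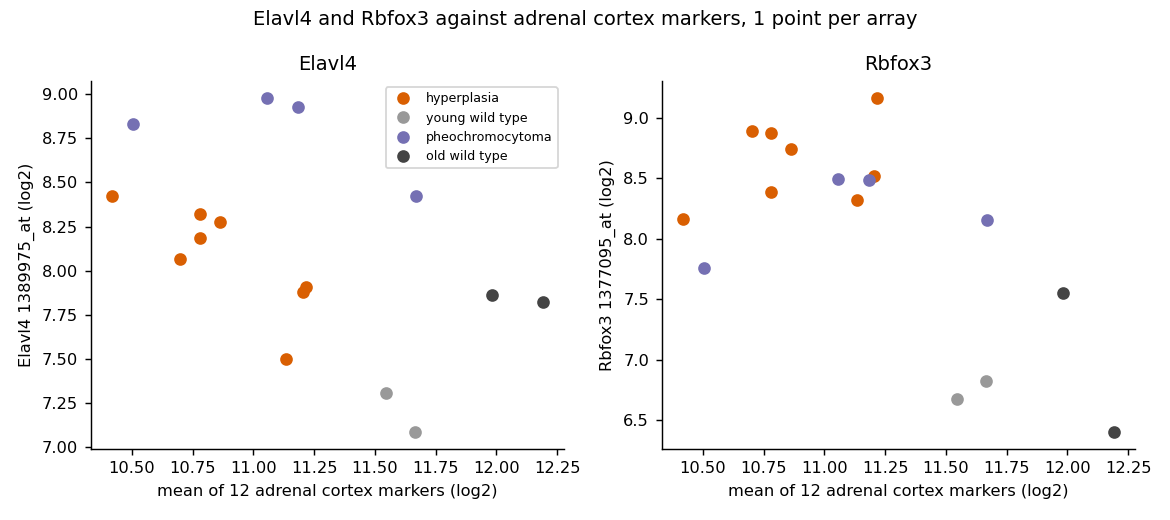
Level of Elavl4 and of Rbfox3 1377095_at (log2, vertical axes) against the mean of 12 adrenal cortex markers (log2, horizontal axes), with 1 point per array coloured by group. Among the 8 hyperplasia points Elavl4 is lower where the cortex mean is higher (r = -0.79), and Rbfox3 is not (r = 0.35). The 4 hyperplasia arrays with Xist are also all higher in Elavl4 than the 4 without it.

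Ganglion neurons of the medulla and its nerve input are also known to express these genes. Of 7 measured markers of such cells, 2 were higher in hyperplasia, Chat (0.80 ± 0.18, adjusted p = 0.0168), which makes acetylcholine, and the transcription factor Isl1 (0.78 ± 0.20, adjusted p = 0.0261). The neuropeptide gene Vip was lower (-1.90 ± 0.36, adjusted p = 0.00605) and 4 did not pass. In pheochromocytoma Isl1 was higher (0.83 ± 0.22, adjusted p = 0.0214), Vip lower (-1.80 ± 0.40, adjusted p = 0.00988) and 5 did not pass. The mean of the 7 was 6.49 to 6.79 in hyperplasia, within which the young pools (6.68 and 6.49) lay, and 6.00 to 6.28 in pheochromocytoma, below both old pools (6.51 and 6.53). Both Chat and Vip in hyperplasia and Vip in pheochromocytoma lost their calls on leaving out either wild-type pool. With the 4 arrays against their sex label left out, Chat was at 0.74 (adjusted p = 0.0784), Isl1 at 0.82 (adjusted p = 0.0953) and Vip at -1.69 (adjusted p = 0.0521) in hyperplasia. Under the cortex covariate all calls of these 3 genes were lost. Chat (0.54, adjusted p = 0.295), Isl1 (0.35, adjusted p = 0.45) and Vip (-1.76, adjusted p = 0.102) did not pass in hyperplasia. Nor did Isl1 (0.24, adjusted p = 0.689) and Vip (-1.62, adjusted p = 0.2475) in pheochromocytoma. Isl1 was at 0.43 (adjusted p = 0.48) without young pool 2 in hyperplasia and at 0.59 (adjusted p = 0.312) without old pool 2 in pheochromocytoma. Of the 7 markers, Slc5a7, the choline transporter gene, was above the first quartile on only 7 arrays, Chat on 12 and Nos1 on 13. The Chat mean was 5.21 in hyperplasia and 4.41 in young wild type, where it lay below the first quartile and signal over background was not shown. What part neurons had in the results was not tested. Of the 6 measured Schwann and sustentacular cell markers 0 passed in hyperplasia, and Mbp was higher (0.91) and S100b lower (-1.42) in pheochromocytoma, where neither passed without old pool 2 (adjusted p = 0.239 and 0.16). Of 9 macrophage and leukocyte markers 0 passed in either comparison. Of 7 endothelial markers 0 passed in hyperplasia and Tek was lower in pheochromocytoma, and of 8 of fibroblasts and pericytes Pdgfra was lower in hyperplasia and Rgs5 higher in pheochromocytoma. The calls of Tek and Rgs5 were lost without old pool 2 (adjusted p = 0.349 and 0.151), and that of Pdgfra without either young pool. Of 3 red blood cell genes 0 passed in either.

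The paralogs of the 3 genes did not all follow them. Elavl1, the widely expressed HuR gene, has 3 probe sets, at -0.37 (adjusted p = 0.242), -0.01 and -0.28 in hyperplasia and at -0.44 (adjusted p = 0.157), -0.08 and -0.11 in pheochromocytoma, none of which passed. Elavl2, which codes for the neuronal protein HuB, gave 0.04 (adjusted p = 0.94), 0.11 and -0.02 in hyperplasia on its 3 probe sets. In pheochromocytoma Elavl2 gave 0.70 (adjusted p = 0.0843), 0.62 (adjusted p = 0.17) and -0.20, so that it did not pass either. Rbfox1 was higher on its 3 brightest probe sets, by 0.96, 1.27 and 0.86 in hyperplasia and by 1.11, 1.20 and 0.92 in pheochromocytoma. Its other 3 probe sets, whose group means were at most 5.08, did not pass in either. On the brightest, Rbfox1 was at 9.18 to 9.85 in hyperplasia (median 9.63) and at 8.58 and 8.74 in young wild type, and at 9.44 to 9.99 in pheochromocytoma against 8.63 and 8.66 in old wild type, without overlap. Rbfox2 differed by 0.34 (adjusted p = 0.175) in hyperplasia and was higher by 0.50 ± 0.16 (adjusted p = 0.0496) in pheochromocytoma on its brighter probe set. On its dimmer probe set Rbfox2 was at -0.03 and -0.17. The Rbfox2 call on the brighter probe set was lost in 18 of 27 alternative settings, among them quantile normalization (0.41) and median centring (0.44). Rbfox2 was at 0.30 (adjusted p = 0.391) without old pool 1 and at 0.68 (adjusted p = 0.104) without old pool 2.

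The wider list of RNA-binding and splicing genes held 46 genes, of which 38 were measured, with 1 probe set, the brightest, per gene. In hyperplasia 6 were higher, 1 was lower and 31 did not pass, against 5.16% of 14217 genes higher and 3.33% lower. The median difference was 0.10, against -0.01 over all genes. Beside Rbfox3, Elavl3 and Elavl4 the higher genes were Rbfox1 (0.96 ± 0.16, adjusted p = 0.00277), Celf5 (0.95 ± 0.21, adjusted p = 0.0134), of the CELF family of splicing and translation regulators, and Cpeb3 (0.55 ± 0.11, adjusted p = 0.00746), which binds cytoplasmic polyadenylation elements. Igf2bp2, a binder of Igf2 and other messenger RNAs, was lower (-0.999 ± 0.14, adjusted p = 0.000731), at a 0.50-fold level. Leaving out the 3 neuronal genes themselves, 3 were higher, 1 lower and 31 did not pass. Igf2bp2 passed whichever array was left out. Celf5 was at 0.78 (adjusted p = 0.236) and Cpeb3 at 0.48 (adjusted p = 0.148) without young pool 2, and Rbfox1 was at 0.90 (adjusted p = 0.0515) and Celf5 at 1.13 (adjusted p = 0.0561) without young pool 1. With the 4 arrays against their sex label left out, Celf5 was at 0.87 (adjusted p = 0.106) and Cpeb3 at 0.47 (adjusted p = 0.0703), while Rbfox1 and Igf2bp2 passed. With the cortex covariate Igf2bp2 passed, and Rbfox1 was at 0.76 (adjusted p = 0.0864).

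In pheochromocytoma 8 of the 38 were higher, 2 lower and 28 did not pass, against 8.85% of genes higher and 6.49% lower, with a median of 0.18 against 0.00 over all genes. Beside Rbfox3, Elavl4 and Rbfox2 they were Celf5 (1.16 ± 0.23, adjusted p = 0.0055), Rbfox1 (1.11 ± 0.18, adjusted p = 0.00167), the neuronal CELF gene Celf4 (0.72 ± 0.12, adjusted p = 0.00205), the polypyrimidine tract binder Ptbp3 (0.60 ± 0.13, adjusted p = 0.00954) and Cpeb1 (0.48 ± 0.11, adjusted p = 0.0114). Lower were Rbm47, an RNA-binding protein of epithelial cells (-2.55 ± 0.55, adjusted p = 0.0082), and again Igf2bp2 (-0.97 ± 0.15, adjusted p = 0.00143). Rbm47 was at -1.61 (adjusted p = 0.0618) in hyperplasia. Leaving out Rbfox3, Elavl3 and Elavl4, 6 genes of the list were higher in pheochromocytoma, 2 lower and 27 did not pass. Rbfox1 passed whichever array was left out. Without old pool 2, Celf5 was at 0.89 (adjusted p = 0.145), Celf4 at 0.62 (adjusted p = 0.0598), Ptbp3 at 0.52 (adjusted p = 0.154), Cpeb1 at 0.37 (adjusted p = 0.202), Igf2bp2 at -0.76 (adjusted p = 0.0505) and Rbm47 at -1.94 (adjusted p = 0.179). With the cortex covariate Rbm47 was at -0.62 (adjusted p = 0.448) and Rbfox1 at 0.84 (adjusted p = 0.155). Celf5 (0.845, adjusted p = 0.262), Celf4 (0.64, adjusted p = 0.14) and Ptbp3 (0.42, adjusted p = 0.335) also lost their calls. So did Cpeb1 (0.40, adjusted p = 0.283), Rbfox2 (0.47, adjusted p = 0.393) and Igf2bp2 (-0.745, adjusted p = 0.143). Of the 37 other genes named as past the threshold in pheochromocytoma, 1 still passed with this covariate.

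**Figure D4:**
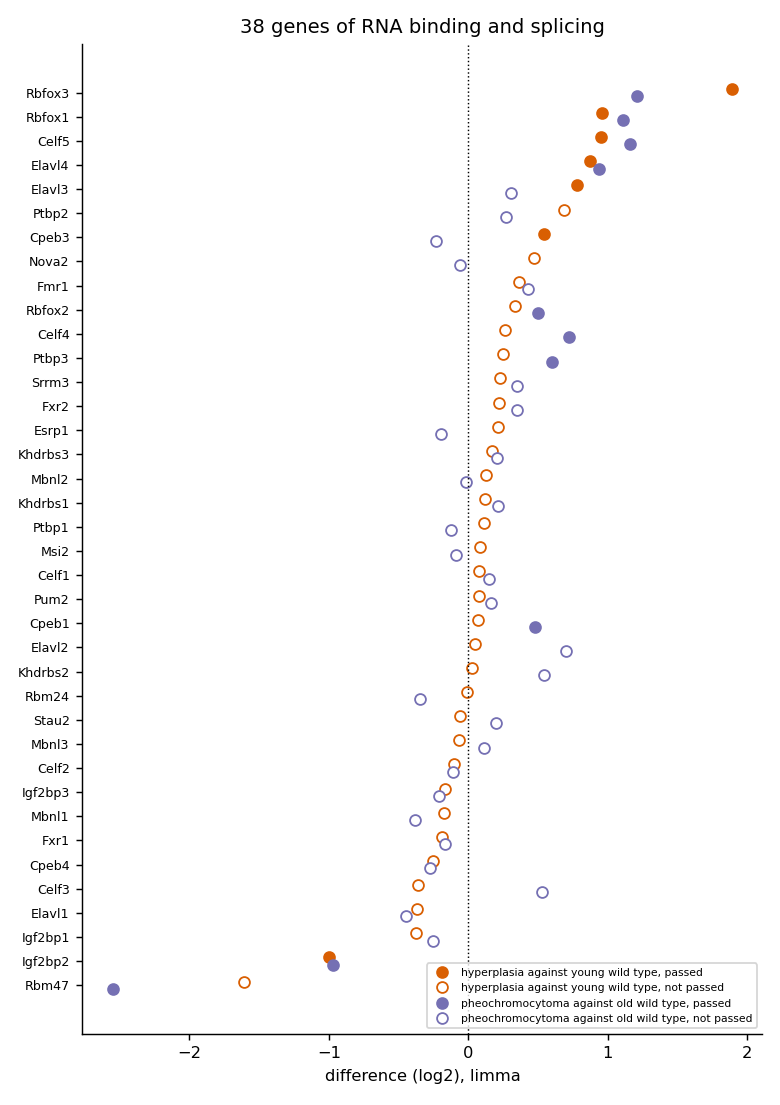
Log2 differences from the limma fit (horizontal axis) of the 38 measured genes of RNA binding and splicing, in hyperplasia against young wild type and in pheochromocytoma against old wild type, with filled points where the adjusted p was under 0.05. Rbfox3, Rbfox1, Celf5 and Elavl4 are filled on the right in both comparisons, and Igf2bp2 on the left in both.

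Transcripts that ELAV-like proteins are reported to bind or stabilise in mammalian cells were taken from a list of 20 written from general knowledge, of which 17 were measured. In hyperplasia 2 were higher, 1 lower and 14 did not pass, with a median of 0.01, against 5.16% of all genes higher, 3.33% lower and a median of -0.01. Higher were the neuronal and endocrine differentiation factor Neurod1 (2.59 ± 0.43, adjusted p = 0.00277) and Myc (1.05 ± 0.22, adjusted p = 0.00952). Homer1, a postsynaptic scaffold gene, was lower (-1.14 ± 0.30, adjusted p = 0.0305). In pheochromocytoma 3 were higher, 1 lower and 13 did not pass, with a median of 0.22, against 8.85% of all genes higher, 6.49% lower and a median of 0.00. Neurod1 was at 2.97 ± 0.48 (adjusted p = 0.00181), the neurite growth gene Nrn1 at 1.00 ± 0.30 (adjusted p = 0.0383), the tau gene Mapt at 0.58 ± 0.15 (adjusted p = 0.0195) and Homer1 at -1.47 ± 0.33 (adjusted p = 0.0101). Gap43, the best-known target of HuD, was at 0.37 (adjusted p = 0.446) in hyperplasia and 0.78 (adjusted p = 0.0898) in pheochromocytoma. Myc was at 0.64 (adjusted p = 0.295) and Neurod1 at 2.38 (adjusted p = 0.0828) without young pool 2, while Homer1 was at -1.31 (adjusted p = 0.117) without young pool 1 and at -0.98 (adjusted p = 0.313) without young pool 2. With the 4 arrays against their sex label left out, Myc was at 0.92 (adjusted p = 0.0695) and Homer1 at -1.11 (adjusted p = 0.133) in hyperplasia. In pheochromocytoma without old pool 2, Mapt was at 0.31 (adjusted p = 0.37), Nrn1 at 0.71 (adjusted p = 0.388, and at 0.70 to 1.01 with its call lost without pheochromocytoma 2, 3 or 4) and Homer1 at -0.92 (adjusted p = 0.243). With the cortex covariate Nrn1 was at 0.03 (adjusted p = 0.971) in pheochromocytoma. Homer1 was then at -0.38 (adjusted p = 0.505) in hyperplasia and -0.42 (adjusted p = 0.533) in pheochromocytoma. Neurod1 also lost its call, at 2.00 (adjusted p = 0.088) in hyperplasia and 2.15 (adjusted p = 0.166) in pheochromocytoma. So did Myc in hyperplasia (0.81, adjusted p = 0.19) and Mapt in pheochromocytoma (0.55, adjusted p = 0.282).

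Other neuronal genes were a list of 20 that were all measured. In hyperplasia 2 were higher, 0 lower and 18 did not pass, against 5.16% of all genes higher. The list median was 0.26, against -0.01 over all genes. Those higher were Prph, the intermediate filament peripherin (1.04 ± 0.15, adjusted p = 0.00096), and the stathmin gene Stmn4 (1.00 ± 0.14, adjusted p = 0.00096). In pheochromocytoma 8 were higher, 0 lower and 12 did not pass, with a median of 0.43, against 8.85% of all genes higher and a median of 0.00. The largest differences were those of Stmn4 (1.29 ± 0.16, adjusted p = 0.000363), Dpysl3 (1.21 ± 0.22, adjusted p = 0.00354), which codes for a regulator of axon growth, Prph (1.15 ± 0.16, adjusted p = 0.000927) and the neurofilament gene Ina (0.95 ± 0.19, adjusted p = 0.00601). Mapt and Gap43 stand in both this list and the preceding one. Prph and Stmn4 passed in both comparisons whichever array was left out. The other 4 were Stmn2 at 0.80, Snap25 at 0.79, Mapt at 0.58 and Syp at 0.55. With the cortex covariate Prph and Stmn4 kept their calls in hyperplasia. In pheochromocytoma Prph (0.98), Stmn4 (1.13), Dpysl3 (0.98) and Ina (0.87) then lost theirs. Without old pool 2, Dpysl3 was at 1.13 (adjusted p = 0.0743) and Ina at 0.68 (adjusted p = 0.164).

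Over the 16 arrays the Rbfox3 probe sets had a Pearson r of 0.97 with each other and the Elavl3 probe sets one of 0.92. Rbfox3 1377095_at and Elavl3 1382168_at had an r of 0.83, which was 0.31 after the group means were subtracted and 0.74 over the 8 hyperplasia arrays. Elavl4 had an r of 0.49 with Rbfox3 1377095_at over the 16 arrays, 0.07 after subtraction and -0.00 over the hyperplasia arrays. With Elavl3 1382168_at its r was 0.37, 0.25 after subtraction and 0.48 over the hyperplasia arrays. These values come from the same arrays, possibly normalized jointly, and describe this set only.

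The genes whose pattern was most like each of the 3, among 14217 genes over the 16 arrays, differed between them. For Rbfox3 they were Asic4, of the acid-sensing ion channel family (r = 0.93, and 0.50 after subtracting the group means), Apc2 (0.93 and 0.78), Txnip (0.92 and 0.71), Gfra2, the receptor of neurturin (0.92 and 0.52), and Atf7ip (0.92 and 0.65). For Elavl3 they were Pdk2 (0.93 and 0.74), Rgs12 (0.90 and 0.78), Pip4k2a (0.90 and 0.63), Colgalt1 (0.89 and 0.60) and Flrt3 (0.88 and 0.51). For Elavl4 they were Cep120 (0.96 and 0.79), Hoxc4 (0.95 and 0.77), the non-coding gene Pvt1 (0.95 and 0.78), Csnk1e (0.94 and 0.76) and Cbln1 (0.94 and 0.86). For each of these 15 genes r was smaller after the group means were subtracted. They were picked by their r over the 16 arrays, so this follows in part from the choice.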

How the data were processed

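The deposited values are log2 levels per probe set and array, made with RMA per the submitters' processing notes (version not given in the sources used here). RMA corrects background, normalizes quantiles and summarises probes. The notes do not name the arrays that were normalized jointly. From these values, 57 control probe sets were left out of 31099. Of the rest, 20826 had 1 symbol in the platform annotation, 436 several and 9780 none, and 20758 were matched by Entrez identifier to a RefSeq gene table, where 0 symbols changed. A gene in the lists is its brightest probe set (14217 genes). No depth applies to arrays; their number limits precision.

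A linear model was fitted per probe set (lmFit and eBayes of limma 3.58.1, under R 4.3.3) to all 16 arrays, with 4 groups and labelled sex, 11 residual degrees of freedom and a prior of 3.97, two-sided, with Benjamini-Hochberg adjustment over 31042 probe sets and a threshold of 0.05. The fit was run on simulated arrays of independent values with changes of known size. Those arrays held no pool, age, sex or quality differences, so they do not test the calls given here. Arrays are the replicates. The p-values rest on a spread between arrays that all 4 groups share. They do not reflect the spread between wild-type animals, which were pooled. Equal replicate numbers did not pair arrays (correlations of deviations from -0.18 to 0.21).

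The 3 genes and all gene lists were chosen with earlier results of these data known. Named are all probe sets of the 3 genes and of Elavl1, Elavl2, Rbfox1 and Rbfox2, every passing gene of the RNA-binding list, up to 4 passing genes per other list, and the 5 best correlated genes per member. Markers of cortex, ganglion, glial, immune, endothelial, fibroblast and red blood cells named beyond those limits were given to account for each list. Alternatives were no sex term, sex from Xist, the arrays against their label left out, only the groups compared, an intensity trend with robust priors, quantile normalization, the 30% dimmest probe sets left out, median centring, array weights, the replicate block, the cortex covariate, the mean of a gene's probe sets, and leaving out each array.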

Additional observations from a re-analysis of the deposited data

How the results depend on the processing

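Over the alternatives the differences of Rbfox3, Elavl3 and Elavl4 in hyperplasia and in pheochromocytoma kept their sign, and those of Elavl4 against hyperplasia kept sign and call. The number of wild-type pools was the main limit. With each array left out in turn, the hyperplasia differences were 1.63 to 1.87 for Rbfox3 1376460_at, 0.57 to 0.99 for Elavl3 1382168_at, 0.41 to 0.90 for 1382169_x_at and 0.72 to 1.02 for Elavl4, with 1 to 5 of 5 past the threshold. In pheochromocytoma they were 0.67 to 1.83 for Rbfox3 1377095_at, 0.58 to 1.58 for 1376460_at and 0.88 to 1.06 for Elavl4, with 0 to 3 past it. The difference of effects of Elavl4 was -0.093 to 0.20. Between tumours and hyperplasia 1 to 3 passed. Old against young wild type gave -0.35 to 0.81 and -0.10 to 0.90 for Rbfox3, -0.052 to 0.37 and -0.11 to 0.39 for Elavl3, and 0 to 1 passed. Elavl2 in hyperplasia was at -0.14 to 0.23.

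No pairing of these arrays by replicate number was seen, and fitting the replicate block takes up most of the residual degrees of freedom. With it, hyperplasia gave 1.53 and 1.64 for Rbfox3, 0.98 and 0.70 for Elavl3 and 0.84 for Elavl4, with 0 past the threshold, pheochromocytoma gave 1.18 and 1.11 for Rbfox3 and 0.83 for Elavl4, also with 0, and the difference of effects of Elavl4 was -0.010. With the cortex covariate the hyperplasia count was 3, with Elavl3 1382169_x_at at 0.72 and Elavl4 at 0.46. The pheochromocytoma count was then 0, with Rbfox3 at 1.49 and 1.17 and Elavl4 at 0.38, the Elavl4 difference of effects was -0.089, and 1 passed in old against young wild type. With the 4 hyperplasia arrays against their sex label left out, 2 passed in hyperplasia (Elavl3 at 0.72 and 0.59 and Elavl4 at 0.81 did not), Rbfox3 1376460_at was at 1.11 in pheochromocytoma, and 1 passed between tumours and hyperplasia. With only the groups compared, 1 passed in pheochromocytoma (Rbfox3 1376460_at at 0.93 and Elavl4 at 0.95 did not), and no difference of effects can be had. Between tumours and hyperplasia 1 passed with quantile normalization, with median centring and with array weights. Old against young wild type had 1 past the threshold with sex from Xist and with quantile normalization. The cause was not tested.

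Over all probe sets, 2227 passed in hyperplasia but 89 with the replicate block, 268 with the cortex covariate, 689 without the arrays against their sex label, 855 without young pool 1 and 375 without young pool 2. In pheochromocytoma 4027 passed, but 571 with the block, 77 with the covariate, 836 with only the groups compared, 466 without old pool 2 and 2159 without pheochromocytoma 4. Old against young wild type gave 7259, but 2473 with only the groups compared, 3969 without old pool 2, 4600 without young pool 1 and 4006 without young pool 2. The difference of effects gave 6, and 0 to 489 elsewhere, the highest without old pool 1. The mean of a gene's probe sets counts genes and gives no such count. Median centring shifted the median of all probe sets by less than 0.1.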

Other observations

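The 8 hyperplasia arrays fell into 4 with Xist and 4 without it. Elavl4 was at 8.18 to 8.43 on those with Xist (mean 8.30) and at 7.50 to 8.06 on those without it (mean 7.84), which do not overlap, while Rbfox3 1377095_at was at 8.16 to 8.87 with Xist and 8.32 to 9.17 without, and Elavl3 1382168_at at 8.74 to 8.90 and 8.44 to 9.04. The cortex marker mean was at 10.42, 10.78, 10.86 and 10.78 on the arrays with Xist and at 10.70, 11.20, 11.13 and 11.22 on those without it. These overlapped through the array at 10.70 only. The Elavl4 difference, and the parts of Xist and the cortex mean in it, were not tested.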
